A study of Homo sapiens with 12 samples.

Results

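The interferon-stimulated genes described here are a list of 45 human genes that cells switch on after exposure to interferon. The list was fixed by gene name, with earlier results of these data known, and its genes were followed in HK-2 cells, an immortalised epithelial line from the human renal proximal tubule. Of the 45 genes, 44 had a probe set on the Affymetrix expression arrays and 37 had a level high enough to be tested, out of 19775 genes with a probe set and 10470 genes tested in the whole series. The study exposed the cells to a compound that the labels call Di, as one of several compounds examined for signatures of toxicity to the kidney. The groups were cells given Di for 12 h, cells given the vehicle (control) for 12 h, cells given Di for 48 h and control cells at 48 h, with 3 arrays each that the labels call biological replicates. Neither the identity nor the dose of Di is given in the sources used here, and all 12 arrays come from this single line, grown in medium with epidermal growth factor, insulin, transferrin and hydrocortisone. The labels name no interferon treatment in any group.

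Interferons are secreted proteins that bind receptors on the cell surface and activate the JAK1 and TYK2 kinases. The kinases phosphorylate STAT proteins, and STAT2 joins the DNA-binding subunit IRF9 in a complex that enters the nucleus and binds the interferon-stimulated response element of its target promoters. A second kind of site, the gamma-activated site, binds STAT dimers and drives genes such as IRF1, a transcription factor that can itself bind response elements. The proteins made in this way detect viral nucleic acid, block virus entry and replication, and tag or degrade viral products, and most cells make some of them without added interferon.

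The promoters of these genes carry the response element core far more often than promoters in general. The windows printed here are examples, chosen among members that have a match. No response element core was found for CMPK2, RIGI, SAMHD1, HERC6, OAS1, IRF9, IRF1 and IFI16, which were also called at 48 h. RefSeq promoters (250 bases before to 50 bases after an annotated start site, build GRCh38.p14) were found for 38 of the 45 genes. The core searched for the response element was GAAA, any pair of bases, then GAAA, on both strands, and the core searched for the gamma-activated site was TTC, any run of 3 bases, then GAA, which reads the same on both strands. The response element core was present in 24 of the 38 promoters (63.2%), in 4.38% of the 27305 genes of the promoter table and in 3.84% of the 8701 tested genes with a promoter. The gamma-activated site core was present in 13 of the 38 (34.2%), in 9.38% of all promoters and in 8.42% of those of tested genes. Each line shows the strand that the gene reads, 5′ to 3′, with the match in capitals and its first base counted from the start site. The first 6 genes fell at 48 h.
IFI44L (chr1:78620259-78620318, plus strand, match at -164): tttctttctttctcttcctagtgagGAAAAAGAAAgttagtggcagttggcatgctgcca
IFI44 (chr1:78649746-78649805, plus strand, match at -60): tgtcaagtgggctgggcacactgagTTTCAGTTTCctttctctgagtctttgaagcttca
IFITM1 (chr11:313975-314034, plus strand, match at -40): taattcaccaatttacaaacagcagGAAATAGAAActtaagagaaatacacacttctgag
IFITM3 (chr11:320878-320937, minus strand, match at -52): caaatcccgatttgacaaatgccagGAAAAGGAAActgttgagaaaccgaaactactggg
IFIT1 (chr10:89392482-89392541, plus strand, match at -116): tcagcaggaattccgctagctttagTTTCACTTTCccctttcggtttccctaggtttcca
IFI6 (chr1:27672273-27672332, minus strand, match at -115): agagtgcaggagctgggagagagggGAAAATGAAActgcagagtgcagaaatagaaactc
The next 4 genes rose at 48 h. The capitals mark the gamma-activated site core in IRF1 and the response element core in the others.
IFIT3 (chr10:89327850-89327909, plus strand, match at -122): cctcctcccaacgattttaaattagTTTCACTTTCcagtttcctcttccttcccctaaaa
PARP14 (chr3:122680785-122680844, plus strand, match at -29): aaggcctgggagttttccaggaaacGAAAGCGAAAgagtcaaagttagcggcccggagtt
PLSCR1 (chr3:146544652-146544711, minus strand, match at -91): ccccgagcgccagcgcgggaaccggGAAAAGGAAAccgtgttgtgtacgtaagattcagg
IRF1 (chr5:132490864-132490922, minus strand, match at -124): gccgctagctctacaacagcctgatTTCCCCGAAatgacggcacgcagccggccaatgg
The last gene, ISG15, did not pass the test at 48 h.
ISG15 (chr1:1013359-1013418, plus strand, match at -113): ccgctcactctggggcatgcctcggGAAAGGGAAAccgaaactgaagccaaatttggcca
Some genes have more than 1 annotated start site. Counted from another start site, the match shown lies at -18 in IFI44 and at -79 in PLSCR1. Another promoter of IFIT3 holds other response element matches, at -94 and -51. The IFI44L promoter holds the same 60 bases a second time, with the match at -73. A second response element core stands in lower case in the windows of IFIT1 (own position -103), IFITM3 (-35) and IFI6 (-93). That of ISG15 contains a second core that overlaps the first and starts at -107. The window of PARP14 also holds a gamma-activated site core in lower case, at -40. At least 2 response element matches that share no base were found in 12 members. Both kinds of core were found in 8 members, and in 5 of these (BST2, EPSTI1, IFI27, IFITM1 and MX1) they shared bases.

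By the call at 48 h, the response element core was found in 10 of the 16 promoters of genes that fell, in 3 of the 5 promoters of genes that rose (IFIT3, PARP14 and PLSCR1) and in 7 of the 11 promoters of tested genes that were not called. It was found in 4 of the 6 promoters of members that were not tested. A match describes letters and does not show that a protein binds there. No promoter was found for IFITM2, IFIT2, MX2, OAS2, OASL, IRF7 and USP18.

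**Figure D1:**
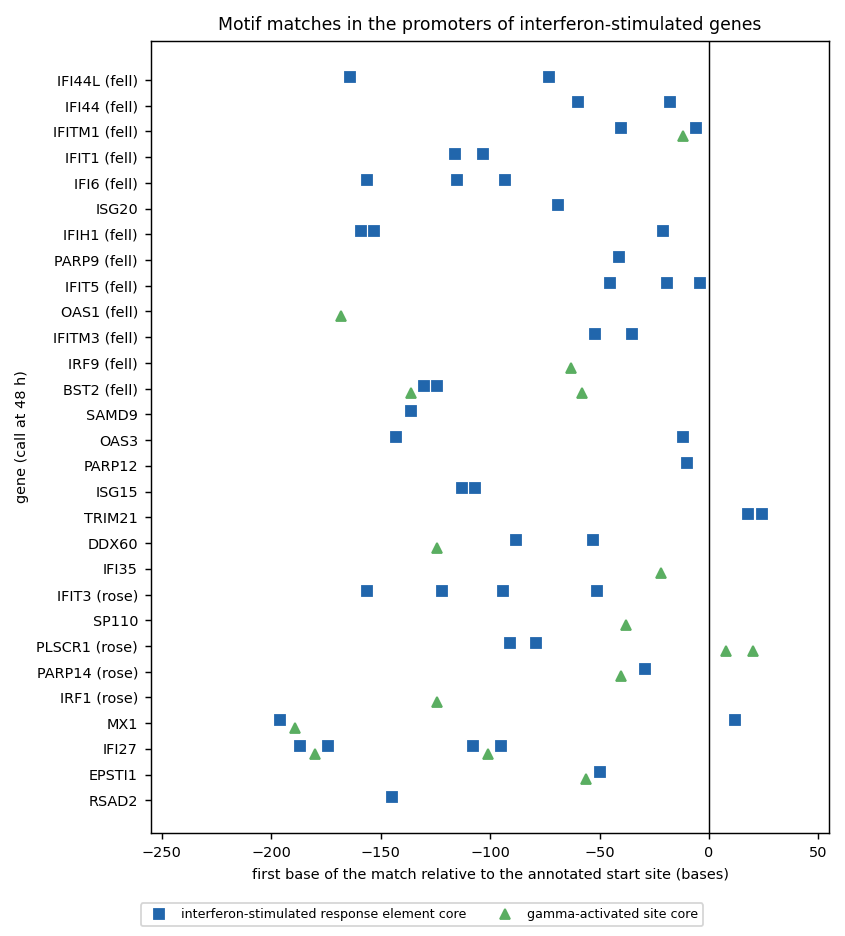
Position of each match of the response element core (squares) and of the gamma-activated site core (triangles) in the promoters of 29 members with at least 1 match. The horizontal axis gives the first base of the match relative to the annotated start site in bases (vertical line), and genes are listed with their call at 48 h. Response element matches lie mostly before the start site, in genes that fell, rose or were not called.

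The values are log2 expression levels that the authors made with GCRMA. A change is the Di mean minus the control mean on the log2 scale with the standard error of a limma fit over all 12 arrays. A gene was called higher or lower, and is said to have risen or fallen, when its adjusted p was under 0.05 after the Benjamini-Hochberg adjustment over 10470 genes. Array medians lay between 2.969 and 3.062, and arrays of 1 group correlated at 0.995 to 0.998 across probe sets. The array that stood farthest from the mean of its own group was replicate 2 of the Di arrays at 12 h (root mean square difference 0.251, against 0.111 to 0.182 for the other arrays), and the counts at 12 h are therefore given with and without it. Epithelial markers were measured (KRT8, KRT18, KRT19, KRT7, EPCAM, CDH1, CDH2, VIM and PAX8), whereas the proximal tubule transport and brush border genes GGT1, ANPEP, AQP1, LRP2, CUBN, SLC34A1 and SLC5A2 stayed under a log2 level of 4, the floor used here, on all arrays. In such bulk RNA, fewer cells that express a gene and less of its RNA per cell cannot be told apart.

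Among the 45 members, 8 have no tested level. STAT2, the partner of IRF9, has no probe set in the gene table used here. MX1 and MX2, which are antiviral GTPases, OAS2, IFI27, XAF1, EPSTI1 and RSAD2 (viperin, an enzyme that makes an antiviral nucleotide) had levels under 4 on all 12 arrays. MX1 measured 2.60, 2.60 and 2.56 with Di and 2.60, 2.61 and 2.61 in control cells at 12 h, and 2.65, 2.97 and 2.61 with Di and 2.62, 2.59 and 2.61 in control cells at 48 h. All of these values lie under the floor and are given no order, whereas 33 members, ISG15 and IFITM3 among them, exceeded it on all 12 arrays. ISG20 exceeded it on 6 arrays, USP18 and SAMD9L on 4 each, and IFI44 on 11.

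At 48 h, 23 of the 37 tested members were called (62.2%), beside 51.4% of all tested genes. Of these, 17 were lower with Di (45.9%, beside 28.2% of all genes) and 6 were higher (16.2%, beside 23.2%). The median change of the 37 was -0.24, against -0.02 over all tested genes. The sizes ran from a 4.34-fold lower level of IFI44L to a 2.08-fold higher level of IRF1. At 12 h, 8 of the 37 were called (21.6%, beside 13.9% of all genes), 3 higher (8.11%, beside 3.94%) and 5 lower (13.5%, beside 9.99%), and the median was 0.03 against -0.06 over all genes. None of the 37 changed by more than 0.92 in size at 12 h. Without replicate 2 of Di at 12 h, 7 members were called at 12 h (beside 12.5% of all tested genes in that fit) and 23 at 48 h (beside 56.2%).

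**Figure D2:**
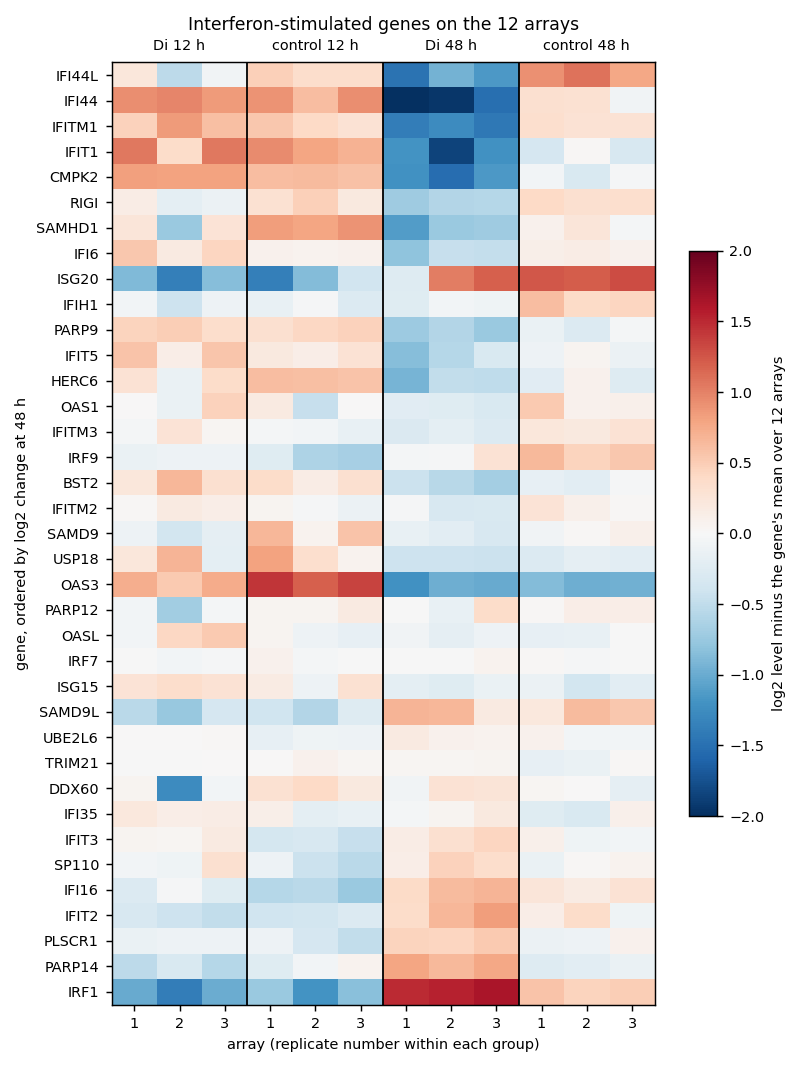
Level of each of the 37 tested members on each of the 12 arrays, as the log2 level minus the gene's mean over the 12 arrays (colour bar from -2 to 2). Genes run down the page by their change at 48 h, from IFI44L at -2.12 to IRF1 at 1.05, and columns are the 3 replicates of each group, with Di left of control at either time. The upper rows are lowest on the Di arrays at 48 h and the bottom rows are highest there.

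The transcription factors moved apart. IRF1, the factor driven by gamma-activated sites, had log2 levels of 8.30, 8.35 and 8.45 on the Di arrays, against 7.39, 7.25 and 7.30 on the control arrays at 48 h. Every Di array lay above every control array. The level was 2.08-fold higher with Di, a change of 1.05 ± 0.13 (adjusted p = 3.55e-05). At 12 h IRF1 had 5.80, 5.44 and 5.82 on the Di arrays, against 6.07, 5.62 and 5.97 on the control arrays, the groups overlapped, and the change was -0.20 ± 0.13 (adjusted p = 0.311). A second probe set for IRF1 gave 0.87 at 48 h (adjusted p = 0.0014) and 0.62 at 12 h (adjusted p = 0.0384), where the chosen probe set was negative and not called, so the direction of IRF1 at 12 h depends on the probe set read.

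IRF9, the DNA-binding subunit of the response element complex, was higher with Di at 12 h and lower at 48 h. It had 6.67, 6.70 and 6.70 on the Di arrays, against 6.55, 6.18 and 6.14 on the control arrays at 12 h, without overlap, a change of 0.40 ± 0.12 (adjusted p = 0.0497). That p is close to the threshold, and in 17 of 21 alternatives, among them the fit without replicate 2 of Di at 12 h (adjusted p = 0.0896), the gene was not called at 12 h. At 48 h the levels were 6.77, 6.78 and 7.10 on the Di arrays, against 7.45, 7.25 and 7.35 on the control arrays. All Di values were then below the control values, and the change was -0.47 ± 0.12 (adjusted p = 0.00669). Between the times (48 h minus 12 h), the mean with Di differed by 0.19 ± 0.12 (adjusted p = 0.179) and the control mean by 1.06 ± 0.12 (adjusted p = 2.36e-05). IRF7, which amplifies the production of alpha interferons, stayed within a narrow range. Its levels at 48 h were 5.78, 5.78 and 5.85 on the Di arrays, against 5.81, 5.76 and 5.77 on the control arrays, and at 12 h they were 5.77, 5.73 and 5.76 on the Di arrays, against 5.87, 5.75 and 5.78 on the control arrays. The groups overlapped at both times, with changes of 0.02 ± 0.06 (adjusted p = 0.781) and -0.04 ± 0.06 (adjusted p = 0.656).

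**Figure D3:**
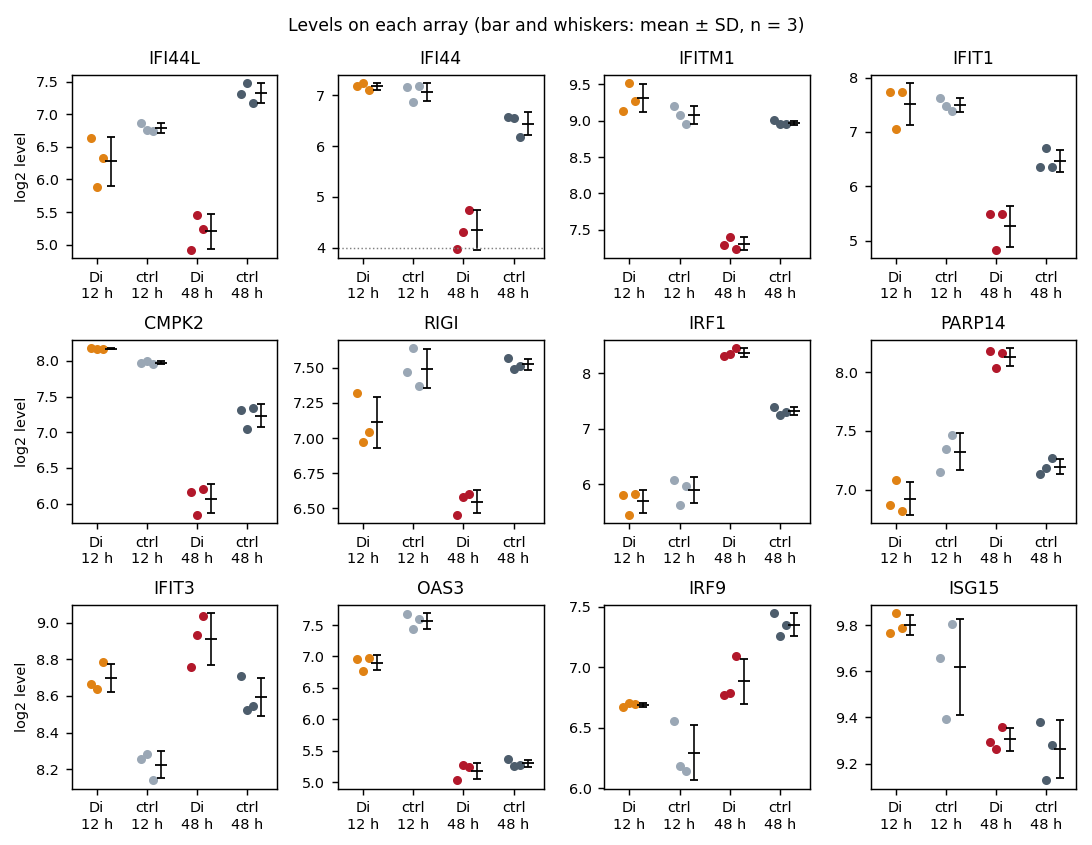
Log2 level of 12 members on each array (points), with the mean and SD of 3 arrays beside each group and Di left of control (ctrl) at each time. The dotted line marks the log2 floor of 4. IFI44L, IFI44, IFITM1, IFIT1, CMPK2 and RIGI lie lowest in Di cells at 48 h, IRF1 and PARP14 lie highest there, and ISG15 shows no separation at 48 h.

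The largest falls were those of IFI44L and IFI44, neighbouring and related genes on chromosome 1 that are widely used as markers of exposure to type I interferon. IFI44L had 4.92, 5.45 and 5.25 on the Di arrays, against 7.31, 7.48 and 7.17 on the control arrays at 48 h. The groups lay far apart, and the change was -2.12 ± 0.18 (adjusted p = 2.22e-06). IFI44 had 3.97, 4.32 and 4.75 on the Di arrays, against 6.58, 6.56 and 6.19 on the control arrays, with 1 Di array at 3.97, just under the floor. Its change was -2.10 ± 0.18 (adjusted p = 2.1e-06), 4.28-fold lower. At 12 h neither gene was called. IFI44L then had 6.63, 5.88 and 6.33 on the Di arrays, against 6.87, 6.75 and 6.75 on the control arrays, all Di values below the control values, with a change of -0.51 ± 0.18 (adjusted p = 0.0839). IFI44 had 7.19, 7.24 and 7.10 on the Di arrays, against 7.16, 6.87 and 7.18 on the control arrays, with overlap and a change of 0.10 ± 0.18 (adjusted p = 0.73). In control cells the pair moved in opposite directions between the times, IFI44L by 0.53 ± 0.18 (adjusted p = 0.0273) and IFI44 by -0.63 ± 0.18 (adjusted p = 0.0111) (48 h minus 12 h). The call of IFI44L between the times in control cells was lost in 6 of 20 alternatives. These were the fits with no level filter and with the replicate block, and those without replicate 2 or 3 of control at 12 h or replicate 1 or 2 of control at 48 h, with an adjusted p of up to 0.0934.

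IFI6, a small membrane protein that limits virus replication and cell death, had 4.65, 5.00 and 4.98 on the Di arrays, against 5.58, 5.61 and 5.55 on the control arrays at 48 h. The 3 Di values were the lowest of the 4 groups, and the change was -0.70 ± 0.11 (adjusted p = 0.000235). At 12 h its 3 Di values lay above the 3 control values, but the change of 0.30 ± 0.11 (adjusted p = 0.0879) did not pass the test.

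The membrane proteins that hinder virus entry or release fell at 48 h. IFITM1, which blocks the fusion of viruses with cell membranes, had 7.29, 7.41 and 7.24 on the Di arrays, against 9.01, 8.95 and 8.95 on the control arrays. The spread within each group was small beside the gap between them. The change was -1.66 ± 0.10 (adjusted p = 1.52e-07), 3.16-fold lower and the smallest adjusted p of the members at 48 h. Its relatives IFITM3 (-0.49 ± 0.08 (adjusted p = 0.000508)) and IFITM2 (-0.35 ± 0.10 (adjusted p = 0.012)) fell by less. These are read only by probe sets whose suffix marks possible cross-hybridisation, and the 3 genes are closely similar copies on chromosome 11, so the values of IFITM2 and IFITM3 are uncertain. BST2 (tetherin), which holds budding viruses on the cell surface, measured 9.19 ± 0.12 in Di cells and 9.61 ± 0.10 in control cells (SD, n = 3 each) and changed by -0.42 ± 0.12 (adjusted p = 0.0111). At 12 h none of these 4 genes was called, with changes of 0.23 for IFITM1, 0.14 for IFITM2, 0.17 for IFITM3 and 0.12 for BST2. The call of IFITM2 at 48 h was lost without replicate 2 of Di or replicate 1 of control at 48 h, with an adjusted p of up to 0.0555.

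The IFIT family, RNA-binding proteins encoded in a cluster on chromosome 10, split. IFIT1, which binds foreign RNA whose cap lacks methylation, had 5.49, 4.83 and 5.48 on the Di arrays, against 6.35, 6.71 and 6.36 on the control arrays at 48 h. Every Di array was below every control array, and the change was -1.21 ± 0.21 (adjusted p = 0.00063). IFIT5 measured 7.71 ± 0.27 in Di cells and 8.23 ± 0.09 in control cells (SD, n = 3 each) and also fell (-0.52 ± 0.14 (adjusted p = 0.0101)). IFIT3, which joins IFIT1 in one complex, had 8.76, 8.93 and 9.04 on the Di arrays, against 8.71, 8.53 and 8.55 on the control arrays at 48 h. All Di values lay above the control values, and the change was 0.32 ± 0.09 (adjusted p = 0.0107). IFIT2 had 8.13, 8.43 and 8.61 on the Di arrays, against 7.91, 8.13 and 7.69 on the control arrays. Its lowest Di array lay just under the highest control array, so the groups overlapped, and the change was 0.48 ± 0.13 (adjusted p = 0.00969). The mean of both IFIT2 probe sets gave 0.32 (adjusted p = 0.122), below the threshold of a call.

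At 12 h the IFIT genes behaved otherwise. IFIT3 had 8.67, 8.64 and 8.78 on the Di arrays, against 8.25, 8.28 and 8.14 on the control arrays, with no overlap. It rose by 0.47 ± 0.09 (adjusted p = 0.00759), and it kept its call in each of 21 alternatives. IFIT1 had 7.74, 7.06 and 7.74 on the Di arrays, against 7.63, 7.48 and 7.38 on the control arrays and overlapped, with a change of 0.02 ± 0.21 (adjusted p = 0.967) that turned negative when certain single arrays were left out. IFIT2 and IFIT5 were not called (-0.06 and 0.21).

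The oligoadenylate synthetases sense double-stranded RNA and make the messenger that activates the nuclease RNase L. OAS3 was the member of this family that changed at 12 h. It had 6.96, 6.77 and 6.98 on the Di arrays, against 7.67, 7.43 and 7.59 on the control arrays at that time, with the Di values all lower. It fell by 0.66 on the log2 scale, 1.58-fold, with a standard error of 0.09 and an adjusted p of 0.00189, and was called in each of 21 alternatives. At 48 h OAS3 had 5.03, 5.27 and 5.23 on the Di arrays, against 5.36, 5.26 and 5.27 on the control arrays. Both groups were then lower than at 12 h, they overlapped, and the change was -0.12 ± 0.09 (adjusted p = 0.3). The drop between the times was -1.73 in Di cells and -2.27 in control cells. OAS1 had 5.23, 5.21 and 5.15 on the Di arrays, against 5.99, 5.54 and 5.55 on the control arrays at 48 h, without overlap and with a change of -0.49 ± 0.19 (adjusted p = 0.0491), a call that was lost in 11 alternatives. At 12 h OAS1 had 5.47, 5.33 and 5.92 on the Di arrays, against 5.64, 4.99 and 5.47 on the control arrays, with wide and overlapping groups and a change of 0.21 ± 0.19 (adjusted p = 0.502). OASL, a relative without synthetase activity, was not called at either time (0.36 at 12 h, and at 48 h an adjusted p of 0.997).

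Among the sensors of nucleic acid, RIGI and IFIH1 fell at 48 h and IFI16 rose at both times. RIGI (listed under its older name DDX58), which detects RNA with a free triphosphate end, had 6.45, 6.58 and 6.60 on the Di arrays, against 7.57, 7.49 and 7.51 on the control arrays at 48 h. The groups were separate, and the change was -0.98 ± 0.10 (adjusted p = 9.58e-06), 1.97-fold lower. Both other probe sets of RIGI that passed the level filter were called lower as well, at -1.37 and -1.04. IFIH1 (MDA5), which detects long double-stranded RNA, had 7.51, 7.70 and 7.67 on the Di arrays, against 8.37, 8.13 and 8.18 on the control arrays. It lay lower on each Di array and changed by -0.60 ± 0.11 (adjusted p = 0.000874). IFI16, which binds DNA in the nucleus and cytosol, had 11.64, 11.89 and 11.94 on the Di arrays, against 11.50, 11.43 and 11.55 on the control arrays. Here the Di values were all higher, by 0.33 ± 0.10 (adjusted p = 0.0151), though the call was lost when replicate 2 or 3 of Di or replicate 2 of control at 48 h was left out, at an adjusted p of up to 0.061.

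At 12 h RIGI had 7.32, 6.97 and 7.05 on the Di arrays, against 7.47, 7.64 and 7.37 on the control arrays. The Di values were lower, and the change was -0.38 ± 0.10 (adjusted p = 0.0295). One other probe set of RIGI showed 0.01 at 12 h and the remaining one -0.29, neither called. Without replicate 2 of Di at 12 h the change was -0.31 with an adjusted p of 0.073, and the call was lost in 8 of 21 alternatives in all, among them those without replicate 3 of Di or replicate 1 or 2 of control at 12 h. IFI16 at 12 h had 10.99, 11.23 and 11.02 on the Di arrays, against 10.69, 10.72 and 10.53 on the control arrays, the Di values all higher, and rose by 0.43 ± 0.10 (adjusted p = 0.0171), a call lost without replicate 3 of control at 12 h (adjusted p = 0.0672) and when the fit held the 12 h arrays alone. IFIH1 was not called at 12 h (-0.05). DDX60, a helicase that assists the RNA sensors, was not called at either time. Its change at 12 h was -0.72 ± 0.27 (adjusted p = 0.1), with replicate 2 of Di at 6.74 and the other Di arrays at 8.04 and 7.94, and at 48 h it was 0.20.

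CMPK2 and SAMHD1, enzymes that act on nucleotides, fell at 48 h. CMPK2, a nucleotide kinase of mitochondria and the neighbour of RSAD2 on chromosome 2, had 6.16, 5.84 and 6.21 on the Di arrays, against 7.31, 7.05 and 7.34 on the control arrays at 48 h. The separation was complete, and the change was -1.17 ± 0.10 (adjusted p = 3.11e-06), 2.24-fold lower. At 12 h all its Di values lay above the control values, with an uncalled change of 0.19 ± 0.10 (adjusted p = 0.231). SAMHD1, which breaks down the building blocks of DNA, had 5.59, 5.95 and 5.98 on the Di arrays, against 6.79, 6.94 and 6.66 on the control arrays at 48 h and 6.94, 5.95 and 6.97 on the Di arrays, against 7.53, 7.49 and 7.60 on the control arrays at 12 h. The Di arrays were lower at both times, by -0.96 ± 0.23 (adjusted p = 0.00452) at 48 h and -0.92 ± 0.23 (adjusted p = 0.0239) at 12 h. At 12 h replicate 2 of Di stood at 5.95, far below the other Di arrays, and without it the change was -0.58 (adjusted p = 0.0152). The mean over all its probe sets that passed the level filter gave -0.23 at 12 h (adjusted p = 0.302), and the call was also lost in 5 other alternatives, among them those without replicate 1, 2 or 3 of control at 12 h (adjusted p of up to 0.0758). Read singly, the other such probe sets of SAMHD1 were lower at 48 h, called at -0.66 and -0.71 and not called at -0.36 and -0.59. At 12 h none of them was called, with changes from -0.44 to 0.83. ISG20, an exonuclease that degrades RNA, was not called at 48 h (-0.60 ± 0.34 (adjusted p = 0.169)). Its Di values at that time were 4.04, 5.32 and 5.49, with replicate 1 far below the other arrays, against 5.54, 5.51 and 5.61 in control cells.

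ISG15, a ubiquitin-like protein that is attached to other proteins and is often among the strongest interferon-induced transcripts, was not called at either time. It had 9.29, 9.26 and 9.36 on the Di arrays, against 9.38, 9.13 and 9.28 on the control arrays at 48 h, with overlap and a change of 0.04 ± 0.10 (adjusted p = 0.769). At 12 h the levels were 9.77, 9.85 and 9.79 on the Di arrays, against 9.66, 9.39 and 9.80 on the control arrays, again overlapping, with a change of 0.18 ± 0.10 (adjusted p = 0.255). The enzyme that conjugates it, UBE2L6, and the protease that removes it, USP18, were likewise not called (at 48 h 0.12 and -0.20). The ubiquitin ligase HERC6 fell at 48 h (-0.51 ± 0.15 (adjusted p = 0.0149)), a call lost without replicate 1 of Di or replicate 2 of control (adjusted p of up to 0.0648). The ligase TRIM21, a receptor for antibodies inside the cell, did not pass the test (0.14 ± 0.06 (adjusted p = 0.0982)).

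The PARP genes, which encode enzymes that attach ADP-ribose to proteins and relatives of such enzymes, also split. PARP14 had 8.18, 8.04 and 8.16 on the Di arrays, against 7.14, 7.19 and 7.27 on the control arrays at 48 h. All Di arrays were higher, and the change was 0.93 ± 0.10 (adjusted p = 1.12e-05), 1.91-fold. At 12 h PARP14 had 6.87, 7.08 and 6.82 on the Di arrays, against 7.16, 7.34 and 7.47 on the control arrays. The order was the opposite one, with all Di arrays lower and a change of -0.40 ± 0.10 (adjusted p = 0.0216). This call at 12 h was lost in 6 of 21 alternatives, which were quantile normalisation, the fit of the 12 h arrays alone and the fits without replicate 1 or 3 of Di or replicate 2 or 3 of control at 12 h (adjusted p of up to 0.0891). PARP9 had 7.09, 7.22 and 7.07 on the Di arrays, against 7.67, 7.53 and 7.77 on the control arrays at 48 h. Its Di arrays were lower, with a change of -0.53 ± 0.08 (adjusted p = 0.000209). PARP12 was not called (-0.03 at 48 h and -0.36 at 12 h).

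Among the remaining members, PLSCR1, which moves phospholipids across membranes, rose at 48 h. It had 11.49, 11.47 and 11.56 on the Di arrays, against 10.92, 10.94 and 11.13 on the control arrays, with the Di values above all control values and a change of 0.51 ± 0.10 (adjusted p = 0.00105). A second probe set of PLSCR1 gave 0.54 (adjusted p = 0.000681). SAMD9, which restricts poxviruses, fell at 12 h, when it had 5.51, 5.25 and 5.44 on the Di arrays, against 6.29, 5.69 and 6.19 on the control arrays. The groups did not overlap, and the change was -0.66 ± 0.14 (adjusted p = 0.0123), a call lost without replicate 3 of control at 12 h (adjusted p = 0.0504) and when the fit held the 12 h arrays alone (adjusted p = 0.0693). At 48 h SAMD9 was not called (-0.24 ± 0.14 (adjusted p = 0.174)), and its neighbour SAMD9L on chromosome 7 was not called at either time. The nuclear body protein SP110 and the leucine zipper protein IFI35 were not called (at 48 h 0.33 and 0.22).

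**Figure D4:**
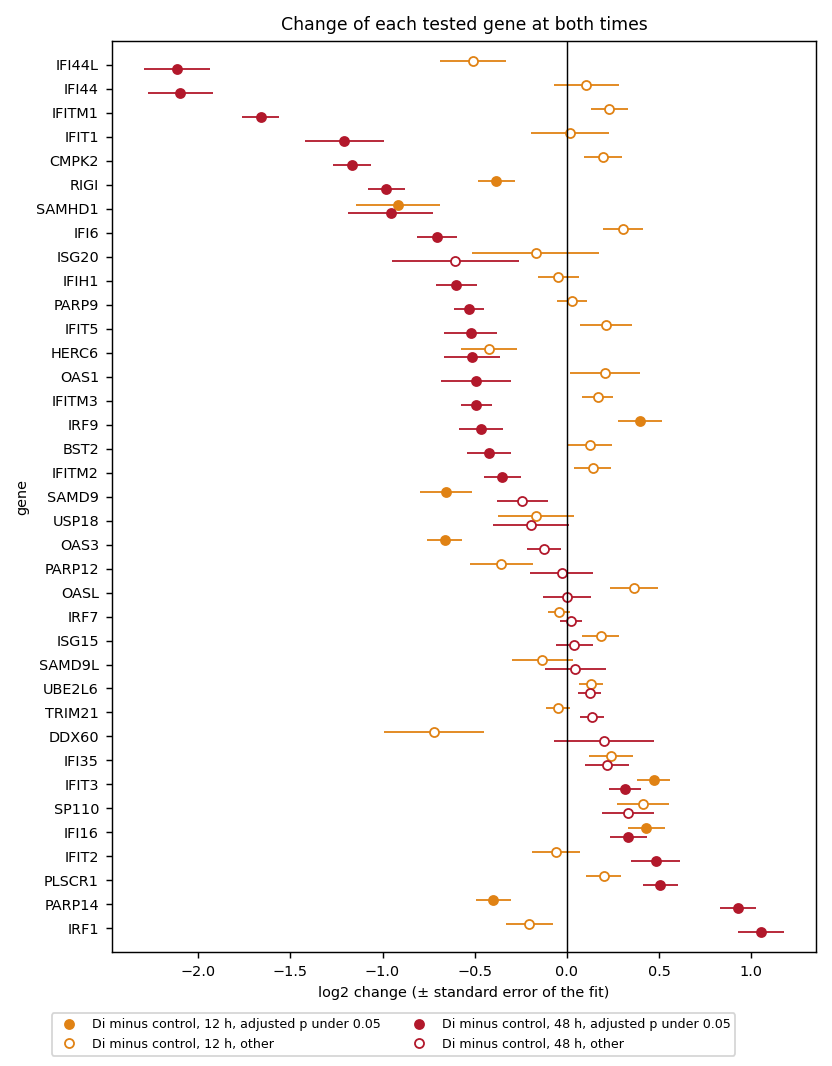
Change of each of the 37 tested members (Di minus control, log2, with the standard error of the fit) at 12 h and at 48 h, ordered by the change at 48 h. Filled points have an adjusted p under 0.05. At 48 h most members at the top lie well below 0, while at 12 h all 37 lie between -0.92 and 0.47.

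Counting arrays and not p-values, 20 members had all 3 Di values below all 3 control values at 48 h (33.2% of all tested genes did) and 7 had them all above (28.8%). At 12 h the counts were 10 below (23.8%) and 8 above (11.2%). Other probe sets of the same genes gave the same sign at 48 h in 19 of 19 cases, and at 12 h in 12 of 19. Of the 13 that belong to called members at 48 h, 9 were called in the same direction and 0 in the other. The log2 gap between the 3′ and 5′ ends of actin on the control probes, which reflects RNA and labelling quality, was 1.22 ± 0.24 with Di and 1.71 ± 0.18 in control cells at 12 h (SD, n = 3 each). An exact two-sided permutation test gave p = 0.1, the lowest value possible with 3 arrays a side. It was 1.41 ± 0.08 with Di and 1.33 ± 0.13 in control cells at 48 h (p = 0.5, exact permutation test). Its part in the changes at 12 h was not tested.

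The change under Di differed between the times for 18 of the 37 members (beside 38.7% of all tested genes). The test was the interaction of the limma fit, the change at 48 h minus the change at 12 h. The difference was negative for 14 members (beside 18.7% of all genes) and positive for 4 (beside 19.9%). IFI44 (-2.20 ± 0.25 (adjusted p = 5.26e-05)) and IFITM1 (-1.89 ± 0.14 (adjusted p = 2.91e-06)) had the most negative values, followed by IFI44L (-1.61 ± 0.25 (adjusted p = 0.000522)) and CMPK2 (-1.36 ± 0.15 (adjusted p = 3.52e-05)). PARP14 (1.33 ± 0.14 (adjusted p = 2.63e-05)) and IRF1 (1.26 ± 0.18 (adjusted p = 0.000265)) had the most positive values. The second probe set of IRF1 changed by 0.62 at 12 h and 0.87 at 48 h, so the size of this difference depends on the probe set. IRF9 (-0.87) and PARP14 are the members that were called in opposite directions at the 2 times, with calls at 12 h that were lost in 17 (IRF9) and 6 (PARP14) of 21 alternatives. SAMHD1 (-0.04 ± 0.32 (adjusted p = 0.938)), IFIT3 (-0.15 ± 0.12 (adjusted p = 0.361)) and IFI16 (-0.10 ± 0.14 (adjusted p = 0.62)), which were called in the same direction at both times, showed no called difference, and RIGI, lower at both times, was called (-0.60). Without replicate 2 of Di at 12 h, 19 members were called in this test (beside 42.1% of all tested genes in that fit), with IFIT2 lost and OAS1 and DDX60 gained.

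The control cells changed with time as well, and these comparisons share arrays with those of Di. Between 48 h and 12 h, 25 of the 37 members differed in Di cells (beside 65.8% of all tested genes), 7 higher at 48 h (31.3% of all genes) and 18 lower (34.5%). In control cells 22 differed (53.4%), 11 higher (22.1%) and 11 lower (31.3%). ISG20, USP18 and SAMD9L are included in both counts. They passed the filter through 1 of the times alone, which favours a difference between times, so their calls here carry no weight. As a description only, the control level of ISG20 was at least 2.93-fold higher at 48 h than at 12 h, reckoned against the floor. IRF1 was higher at 48 h by 2.68 in Di cells and 1.43 in control cells, and IFI16 by 0.75 and 0.85 in the same order. IFIT1 was lower at 48 h by both comparisons, at -2.25 with Di and -1.02 in control cells. IFITM1, IFI6 and RIGI were lower at 48 h with Di (-2.00, -0.96 and -0.57), while in control cells they were not called (-0.11, 0.04 and 0.03). IFIH1 was not called with Di (0.07 ± 0.11 (adjusted p = 0.625)) and was higher with time in control cells (0.62 ± 0.11 (adjusted p = 0.000698)). PARP14 was higher with time in Di cells (1.20) and not called in control cells (-0.13).

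Genes that stand next to each other in the genome did not always change alike. IFI44L and IFI44 fell together on chromosome 1, as did IFITM1, IFITM2 and IFITM3 on chromosome 11. On chromosome 10, IFIT2 and IFIT3 rose while IFIT1 and IFIT5 of the same cluster fell. On chromosome 12, OAS1 fell at 48 h, OAS3 was not called and OAS2 was under the floor. On chromosome 2, CMPK2 fell beside RSAD2, which was under the floor, and on chromosome 21 both MX1 and MX2 were under it.

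The other genes of the pathway were read from 7 lists of signalling, induction and response genes, whose counts stand beside 51.4% of all tested genes called at 48 h and 13.9% at 12 h. All 18 interferon genes with a probe set (of 21 listed) stayed under the floor, with a highest level of 2.87 for any of them on any array. Of the receptors, kinases and STAT proteins, 9 of 11 were tested. At 48 h 2 of them rose and 4 fell (median -0.18, against -0.02 over all genes), and at 12 h 0 rose and 3 fell (median -0.33, against -0.06). The shares called were 66.7% at 48 h and 33.3% at 12 h. The type I receptor chain IFNAR1 fell at both times (-0.48 ± 0.12 (adjusted p = 0.00467) at 48 h and -0.39 ± 0.12 (adjusted p = 0.047) at 12 h). At 12 h it had 7.39, 6.92 and 7.35 on the Di arrays, with replicate 2 lowest, against a control mean of 7.61. Whether IFNAR1 keeps its call at 12 h without that replicate was not examined. Its partner IFNAR2 was not called (-0.06 and 0.26). The kinase TYK2 fell at both times (-0.37 and -0.42). JAK1 rose at 48 h (0.64 ± 0.10 (adjusted p = 0.000173)) and fell at 12 h (-0.33 ± 0.10 (adjusted p = 0.0428)), and JAK2 rose at 48 h (0.69). IFNGR2, a chain of the gamma interferon receptor (-0.77), and STAT3 (-0.60) fell at 48 h.

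Of the negative regulators, 9 of 10 were tested, with 0 higher and 3 lower at 48 h (median -0.31) and 2 higher and 0 lower at 12 h (median 0.04). The share called at 48 h, 33.3%, lay below the 51.4% of all tested genes, and at 12 h it was 22.2% beside 13.9%. SOCS3, an inhibitor of the receptor kinases, fell at 48 h (-1.46 ± 0.09 (adjusted p = 1.35e-07)) and rose at 12 h (0.55 ± 0.09 (adjusted p = 0.00401)). The phosphatase PTPN1 did the same (-0.58 and 0.59), and PTPN6 fell at 48 h (-0.48). Of the genes for sensing nucleic acid and inducing interferon, 9 of 14 were tested, with 5 higher and 2 lower at 48 h (median 0.44) and 1 higher and 0 lower at 12 h (median 0.06). The shares called were 77.8% at 48 h and 11.1% at 12 h. TRIM25, the ubiquitin ligase that acts on RIG-I, rose at 48 h (1.79 ± 0.12 (adjusted p = 2.72e-07)), as did the kinase TBK1 (0.76) and the adaptor TICAM1 (0.71). TLR3, a receptor for double-stranded RNA, fell (-0.56). At 12 h the DNA sensor CGAS rose (0.71). The factor IRF3, which starts interferon transcription, was not called (-0.16 at 48 h and 0.16 at 12 h).

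**Figure D5:**
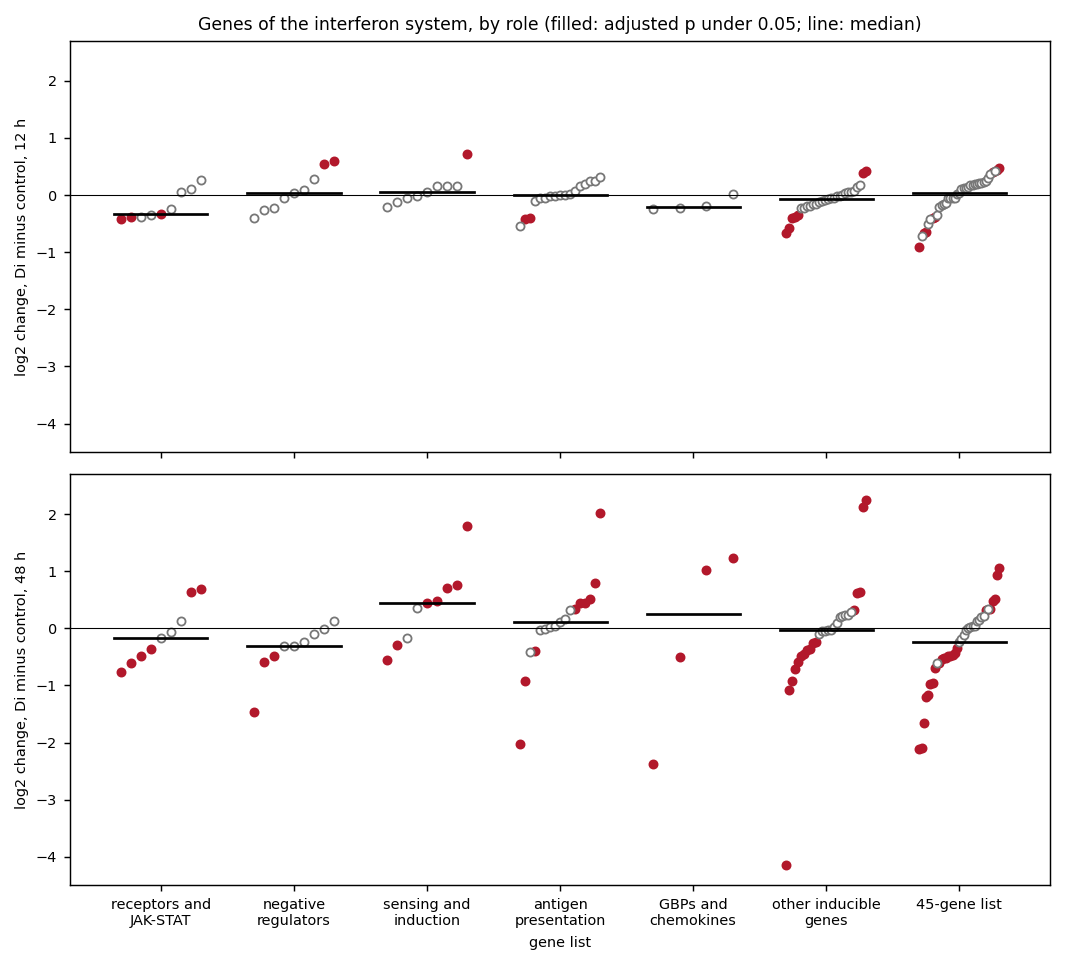
Change of each tested gene (Di minus control, log2) at 12 h (upper panel) and 48 h (lower panel) for 6 lists of the interferon system and the 45-gene list, of which 37 were tested. Filled points have an adjusted p under 0.05 and lines mark medians. The 45-gene list has its median at -0.24 at 48 h, and the sensing and induction genes have theirs at 0.44.

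Antigen presentation had 17 of 22 genes tested, with 6 higher and 3 lower at 48 h (median 0.12) and 0 higher and 2 lower at 12 h. The shares called, 52.9% at 48 h and 11.8% at 12 h, lay near those of all tested genes (51.4% and 13.9%). The peptide transporter subunit TAP2 rose at 48 h (2.02 ± 0.11 (adjusted p = 6.52e-08)), as did the immunoproteasome subunit PSMB9 (0.80). HLA-DMA (-2.03 ± 0.16 (adjusted p = 1.19e-06)) and CD74 (-0.93), which act in the loading of class II molecules, fell. The loading factor TAPBP (-0.40) and the peptidase ERAP1 (-0.43) were the genes that fell at 12 h. Of the guanylate-binding proteins and chemokines, 4 of 11 were tested. GBP1 (1.23 ± 0.14 (adjusted p = 1.81e-05)) and GBP3 (1.01) rose at 48 h and GBP2 fell (-0.50), with none called at 12 h. The chemokine CCL2 was lower with Di, with a mean level of 3.72 under the floor against 6.10 in control cells (adjusted p = 3.46e-06), while CXCL9, CXCL10 and CXCL11 were under the floor on all arrays.

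Of 40 other interferon-inducible genes, 28 were tested, with 5 higher and 11 lower at 48 h (median -0.03) and 2 higher and 5 lower at 12 h (median -0.07). The share called at 48 h, 57.1%, lay near the 51.4% of all tested genes, and at 12 h it was 25% beside 13.9%. TNFSF10, the death ligand TRAIL, fell most (-4.15 ± 0.11 (adjusted p = 2.09e-10)), followed by the ubiquitin ligase TRIM38 (-1.08). The lysosomal membrane protein LAMP3 (2.25 ± 0.14 (adjusted p = 2.05e-07)) and TMEM140 (2.12) rose. At 12 h the genes with the largest called changes were APOBEC3F (-0.67), CMTR1 (-0.58), TENT5A (0.43) and TRIM38 (-0.41). These lists hold the same kinds of gene as the 45 members and were chosen with earlier results of these data known.

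Markers of other cell types were read beside these changes. Of 10 leukocyte markers, which include professional sources of interferon, 9 had a probe set. PTPRC, which encodes CD45, had a highest level of 3.19, and LILRA4 was the sole leukocyte marker tested, at mean levels of 4.24 with Di and 3.93 in control cells at 48 h (not called). Their summed linear level was 59.2 to 79.6 with Di and 58.7 to 62.2 in control cells at 48 h, and 58.1 to 66.8 with Di and 59.8 to 60.1 in control cells at 12 h. Of 5 endothelial markers 0 were tested. Of 6 fibroblast markers 3 were tested, and DCN (-1.01) and LUM (-0.72) fell at 48 h, whereas PDGFRA, PDGFRB and COL3A1 were under the floor on all arrays. The summed level of the fibroblast list was 683 to 870 with Di and 1366 to 1458 in control cells at 48 h. That of the epithelial list was 27230 to 27650 with Di and 30170 to 31970 in control cells, with KRT19 (-1.19), CDH1 (-1.33), CDH2 (-0.98) and EPCAM (-0.65) lower and KRT18 (0.20) and PAX8 (0.39) higher. The part of these shifts in the members' changes was not tested.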

How the data were processed

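Per the submitters' processing notes, the authors made the deposited log2 values with GCRMA, a method that removes background, normalises the arrays and gives 1 value per probe set (version not given in the sources used here). No further normalisation was applied. Of 54675 probe sets, 62 were controls, 41091 had 1 gene symbol, 1801 several and 11721 none. Each gene was read by 1 probe set, not one marked _x_at if another existed and then the one with the highest mean of 12 arrays, and was tested when that probe set exceeded a log2 level of 4 in at least 3 of 12 arrays. With limma 3.58.1 (lmFit, eBayes) run in R 4.3.3, 1 mean per group was fitted over all 12 arrays and tested two-sided, with Benjamini-Hochberg adjustment over 10470 genes and a threshold of 0.05. The script was tested on simulated data. Arrays give no counting depth, so 3 arrays a group limit the precision, and the sources give no batch. Promoters and current symbols came from RefSeq (GRCh38.p14). Plots came from matplotlib 3.10.9 (Python 3.11.15).

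The members, the 7 pathway lists and the 4 marker lists were chosen with earlier results of these data known. Values of every array are printed for ISG15, IFIT1, MX1, OAS1, IRF9, IRF1 and IRF7, for up to 10 called members per direction at each time and for the 6 largest differences between times. Other list genes are the 4 largest called ones per time and a few fixed names. The groups share replicate numbers, and the labels do not say whether same-numbered arrays are paired. Deviations of same-numbered Di and control arrays from their group means correlated at -0.228 to 0.153 at 12 h and -0.263 to 0.0926 at 48 h. With 3 arrays a group, such correlations cannot tell whether those arrays were handled together. The main fit treated them as unpaired, and a replicate block was an alternative. The 22 alternatives were the level filter (none, or a floor of 6), the filter before the choice of probe set, the mean of all kept probe sets, trend and robust moderation, quantile normalisation, median centring, a replicate block, only the arrays of 1 time, and leaving out each of 12 arrays.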

Additional observations from a re-analysis of the deposited data

Results flagged for a closer look

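For 18 members the change under Di at 48 h differed from that at 12 h by the interaction term of the limma fit (adjusted p under 0.05 over all tested genes, beside 38.7% of all tested genes called). Values are differences of log2 changes, 48 h minus 12 h. The difference was negative for IFI44 (-2.2, adjusted p = 5.26e-05), IFITM1 (-1.89, adjusted p = 2.91e-06), IFI44L (-1.61, adjusted p = 0.000522), CMPK2 (-1.36, adjusted p = 3.52e-05) and IFIT1 (-1.22, adjusted p = 0.00807). It was also negative for IFI6 (-1.0, adjusted p = 0.000417), IRF9 (-0.865, adjusted p = 0.00203), IFIT5 (-0.734, adjusted p = 0.0145), IFITM3 (-0.659, adjusted p = 0.00125) and RIGI (-0.597, adjusted p = 0.00646). Smaller negative differences were those of PARP9 (-0.56, adjusted p = 0.00266), IFIH1 (-0.553, adjusted p = 0.0168), BST2 (-0.548, adjusted p = 0.0241) and IFITM2 (-0.491, adjusted p = 0.0176). The difference was positive for PARP14 (1.33, adjusted p = 2.63e-05), IRF1 (1.26, adjusted p = 0.000265), OAS3 (0.541, adjusted p = 0.00741) and IFIT2 (0.54, adjusted p = 0.0395). For IRF1 the second probe set changed by 0.62 at 12 h and 0.87 at 48 h, a smaller difference than that of the chosen probe set. The call of IFIT2 was lost in 13 of 20 alternatives (adjusted p of up to 0.494) and that of BST2 in 4 of 20 (adjusted p of up to 0.0605). The other 16 kept theirs in every alternative that gave a value.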

How the results depend on the processing

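At 48 h 18 of the 23 member calls held in every alternative with a value, and those of IFIT2, IFI16, OAS1, IFITM2 and HERC6 did not. At 12 h the calls of IFIT3 and OAS3 held in all of them, and the other 6 did not. Members called at 12 h numbered 5 with the mean of all kept probe sets (beside 12.74% of all tested genes). They numbered 2 when the fit held the 12 h arrays alone (beside 5.79%), where 594 genes were called in place of 1459. Leaving out 1 array gave 3 to 9 members and 729 to 1458 genes at 12 h (6.975% to 14.01% of all tested genes). There were 5 members without replicate 3 of Di (beside 9.4%). Without replicate 2 of control, 4 members and 729 genes were called (6.975%). Without replicate 3 of control, 3 members and 773 genes were called (7.4%). At 48 h, leaving out 1 array gave 20 to 24 members (beside 45.1% to 56.2% of all tested genes). For the difference between times it gave 16 to 20 (33.9% to 42.1%). For the changes with time it gave 17 to 23 in control cells (46.1% to 58.5%) and 23 to 27 in Di cells (61.4% to 66.1%). With the replicate block, 6 members were called at 12 h (beside 9.56% of all tested genes), with IRF9 and RIGI lost. In that fit 23 were called at 48 h (beside 48.2%). For the difference between times 18 were called (beside 34.8%), with IFIT2 lost and OAS1 gained. Uncalled changes turned sign for IFIT1 at 12 h (-0.10 without replicate 1 of Di, -0.10 without replicate 3 of Di and -0.04 without replicate 3 of control, within a range up to 0.24), IRF1 at 12 h (0.21 with the mean of probe sets), IRF7 at 12 h (0.021 with quantile normalisation) and at 48 h (-0.0049 with median centring), and ISG15 at 48 h (-0.027 without replicate 2 of control, within a range up to 0.0997). The cause of these sign changes was not tested. Quantile normalisation gave 5 members higher and 4 lower at 12 h, with IFI6 and SP110 gained and PARP14 lost. In that fit 12.59% of all tested genes were called in either direction.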
